A study of Mus musculus with 17 samples.

Results

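The genes that make sterols and fatty acids were followed in RNA-seq of mouse Kupffer cells (KCs), macrophages that live in the liver sinusoids and were sorted from it. The 34 genes were chosen by symbol as 18 enzymes of the sterol branch, 11 enzymes of the fatty acid branch and 5 regulators, and all 34 were found among the 25124 genes of each of the 3 tables. The 17 samples came from livers. KCs gated as Tim4+CD206+ or Tim4+CD206hi were sorted from untreated, tumour-free mice (n = 3 for each population) and from mice that had received KPC tumour cells, a mouse pancreatic adenocarcinoma line, into the portal vein 2 weeks earlier (n = 3 for each population). KCs of untreated Id3f/f mice (n = 3), whose floxed Id3 alleles are intact, were set against KCs of untreated Clec4fCreId3f/f littermates (n = 2), which carry the same floxed alleles and a Cre driven by Clec4f, a gene of KCs. Ages were not given in the labels. The replicates are described as mice for the Id3 comparison only, so that elsewhere p-values measure the spread between these samples, which may be technical.

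Cells build cholesterol from acetyl-CoA through mevalonate, squalene and lanosterol, and fatty acids from acetyl-CoA through malonyl-CoA. The transcription factors SREBP2, encoded by Srebf2, and SREBP1, encoded by Srebf1, mainly drive the sterol and the fatty acid genes, respectively, when the protein SCAP carries them out of the endoplasmic reticulum, and INSIG1 holds them back when sterols are plentiful. KCs take up lipoproteins, red cells and dying cells, and so receive cholesterol from outside as well as making it, while hepatocytes and many carcinoma cells use both branches heavily.

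Values below are the deposited log2 values, and a difference of 1 is a factor of 2. They behave like a regularized log transformation, though the sources used here do not name it, and such a transformation pulls the differences of genes with few reads towards 0. All 34 genes passed the filter on low values in each table, so none was left out. The read depth of the samples is not given in the sources used here. KC markers (12 genes, among them Clec4f, Timd4 and Cd5l) summed to more than any other cell type list in every group. With tumour their sum went from 21.09 to 21.68 down to 20.77 to 20.88 in Tim4+CD206+ samples, without overlap (11 of 12 below 0, 3 called lower), and from 20.09 to 20.66 to 19.94 to 20.11 in Tim4+CD206hi samples (10 of 12 below 0, 0 called). With tumour, the summed level of 14 epithelial genes went from 10.96 to 11.90 up to 15.42 to 15.63 in Tim4+CD206+ samples and from 11.06 to 11.47 up to 15.87 to 15.96 in Tim4+CD206hi samples, and 13 of 13 tested epithelial genes rose in both. The summed level of 14 hepatocyte genes went from 14.64 to 15.08 down to 13.05 to 13.50, and from 14.89 to 15.15 down to 13.06 to 13.33, with 9 and 10 of the 14 lower. Monocyte and neutrophil genes rose too (4 of 8 each in Tim4+CD206+ samples, and 5 and 4 of 8 in Tim4+CD206hi samples). B cell genes fell (3 of 4 and 2 of 6 tested), and the endothelial sum went from 14.04 to 14.90 to 13.67 to 14.10 in Tim4+CD206+ samples (0 of 10 called) and from 17.48 to 18.18 down to 16.87 to 17.19 in Tim4+CD206hi samples (1 of 10 called lower). T or NK cell genes lay mostly below 0 (7 of 7 and 6 of 7 tested), with 0 called in both. Their sum went from 11.22 to 12.19 to 11.16 to 11.23, and from 11.07 to 11.35 down to 10.60 to 10.62. Of 8 stellate genes, 0 were called in Tim4+CD206+ samples and 2 were called lower in Tim4+CD206hi samples. All these shifts went with every tumour result below and their part in it was not tested. In bulk RNA, fewer cells of a type and less RNA per cell cannot be told apart.

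Levels were measured per kilobase of exon and ranked among all genes tested in the same table. The branches had medians within 10 percentiles of one another in tumour-free Tim4+CD206+ and Tim4+CD206hi KCs, but not in Id3f/f KCs. The median percentile was 63.5 for sterol enzymes, 62.2 for fatty acid enzymes and 65.3 for regulators in Tim4+CD206+ KCs, and 62.4, 56.8 and 65.9 in Tim4+CD206hi KCs. In Id3f/f KCs the medians were 54.6 for sterol enzymes, 48.9 for regulators and 29.1 for fatty acid enzymes. The tables were normalized separately, so the percentiles describe each table and were not tested between them.

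Within each branch the levels spread widely. Acly, the enzyme that makes cytosolic acetyl-CoA from citrate and so feeds both branches, had the highest percentile of the 34 genes in all 3 control groups (95.2 in Tim4+CD206+, 97.3 in Tim4+CD206hi and 87.5 in Id3f/f KCs). Of the sterol enzymes, Ebp, the sterol isomerase, ranked highest at 91.9, 88.3 and 85.2. Sqle, the squalene epoxidase that commits squalene to sterols, ranked far lower at 37.9, 32.7 and 12.6. The 2 lowest fatty acid genes in Id3f/f KCs were Acaca, the acetyl-CoA carboxylase that makes malonyl-CoA, at 5.50 and Elovl6, an elongase, at 6.93. The plot of control-group levels shows this spread in every branch.

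**Figure D1:**
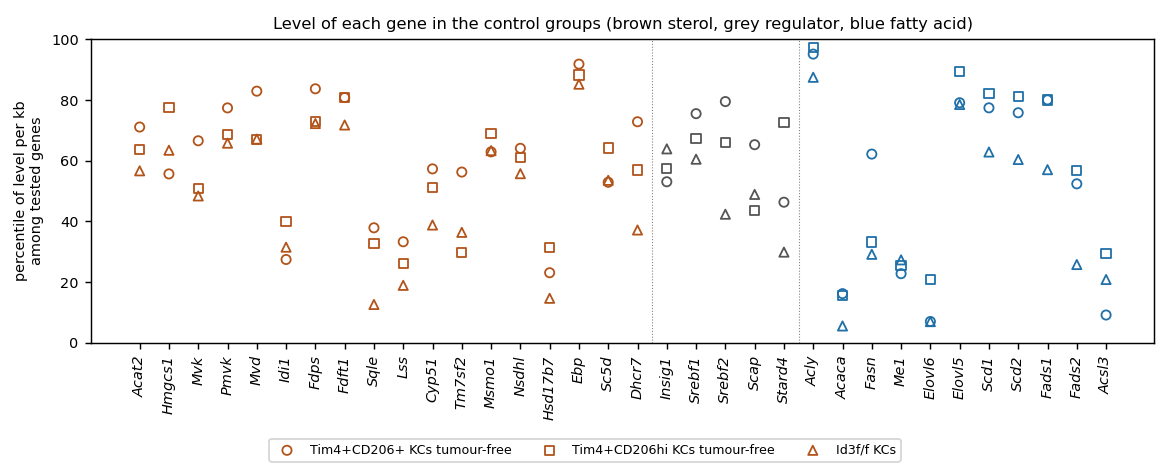
Level of each gene in the control groups, given as the percentile of its log2 value per kilobase of exon among all genes tested in the same table (y axis, 0 to 100); circles are tumour-free Tim4+CD206+ KCs, squares tumour-free Tim4+CD206hi KCs and triangles Id3f/f KCs. Acly lies highest in each, from 87.5 to 97.3, and Elovl6 and Acaca lie among the lowest.

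The rule that chose the genes used no sequence, so their promoters were read as a further property. RefSeq windows of 250 bases before to 50 bases after the start (GRCm38.p6) were at hand for 27 of the 34 genes. The letters CCAAT, the box bound by NF-Y, stood on either strand in 22 of the 27 genes (81.5%), against 42.5% of 11352 genes with a window that were tested in the Tim4+CD206hi table. Among sterol enzymes 14 of 15 held it, and among fatty acid enzymes 5 of 8. GGGCGG, the Sp1 box, stood in 22 of 27 (81.5%) against 64.3% of tested genes, in 14 of 15 sterol enzymes and in 4 of 8 fatty acid enzymes. One form of the sterol regulatory element, TCACNCCAC, stood in 1 gene, Hmgcs1, against 1.40% of tested genes. E boxes of the kind bound by E proteins, the partners that ID3 sequesters, stood in shares close to those of tested genes, CAGCTG in 4 of 27 (14.8% against 17.8%) and CAGGTG in 6 of 27 (22.2% against 21.1%). A match describes the letters of the window and shows no binding.

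The 150 bases before the start are printed, 5′ to 3′ on the strand of the gene, for Hmgcs1, which holds the sterol element, and for the genes called in a comparison below that had a window. Capitals mark TCACNCCAC, CCAAT and GGGCGG read on either strand (so that ATTGG and CCGCCC are capitals too), and adjoining matches run together.
Hmgcs1 (chr13:119690201-119690350, plus strand): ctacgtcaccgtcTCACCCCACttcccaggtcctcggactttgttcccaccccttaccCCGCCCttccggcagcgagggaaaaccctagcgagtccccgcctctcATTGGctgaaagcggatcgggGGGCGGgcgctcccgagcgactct
Mvd (chr8:122443423-122443572, minus strand): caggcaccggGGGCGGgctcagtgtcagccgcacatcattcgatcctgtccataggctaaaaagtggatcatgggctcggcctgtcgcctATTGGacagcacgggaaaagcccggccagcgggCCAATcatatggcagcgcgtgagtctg
Cyp51 (chr5:4104698-4104847, minus strand): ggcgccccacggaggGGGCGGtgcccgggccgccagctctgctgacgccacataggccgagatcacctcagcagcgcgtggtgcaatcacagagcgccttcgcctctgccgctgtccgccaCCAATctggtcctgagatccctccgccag
Msmo1 (chr8:64733579-64733728, minus strand): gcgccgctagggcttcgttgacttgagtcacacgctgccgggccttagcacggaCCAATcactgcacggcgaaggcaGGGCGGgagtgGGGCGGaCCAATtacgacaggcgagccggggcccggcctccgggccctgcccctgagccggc
Sc5d (chr9:42264301-42264450, minus strand): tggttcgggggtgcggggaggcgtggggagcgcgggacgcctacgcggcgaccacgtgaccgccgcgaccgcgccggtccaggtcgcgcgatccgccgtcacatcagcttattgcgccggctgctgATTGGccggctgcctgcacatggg
Acly (chr11:100528001-100528150, minus strand): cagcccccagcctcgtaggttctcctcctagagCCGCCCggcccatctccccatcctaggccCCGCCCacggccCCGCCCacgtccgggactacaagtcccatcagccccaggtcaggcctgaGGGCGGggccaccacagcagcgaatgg
Fasn (chr11:120824548-120824697, minus strand): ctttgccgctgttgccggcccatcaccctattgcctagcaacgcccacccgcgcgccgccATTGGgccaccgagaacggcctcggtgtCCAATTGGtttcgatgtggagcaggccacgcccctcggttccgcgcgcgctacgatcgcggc
Me1 (chr9:86695915-86696064, minus strand): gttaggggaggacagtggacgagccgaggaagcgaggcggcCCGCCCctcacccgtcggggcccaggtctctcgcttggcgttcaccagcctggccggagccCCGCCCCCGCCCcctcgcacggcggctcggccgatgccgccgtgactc
In Hmgcs1 the sterol element spanned bases -137 to -129, counted from the start. The 4 other sterol genes shown each held CCAAT within this stretch, Fasn held it 3 times, and Acly and Me1 held only GGGCGG, 4 and 3 times. In Me1, for which RefSeq gave 2 windows, the one farther upstream is shown. The starts are those of RefSeq, and GENCODE places some genes differently. There Msmo1 spans chr8:64718139-64733792, so that its printed stretch lies inside the gene. The stretches of Cyp51 (gene up to base 4104746) and Me1 (up to base 86695953) lie partly inside the gene. Of the 34 windows of the 27 genes, 28 had the bases after the start in a GENCODE transcript of that gene.

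**Figure D2:**
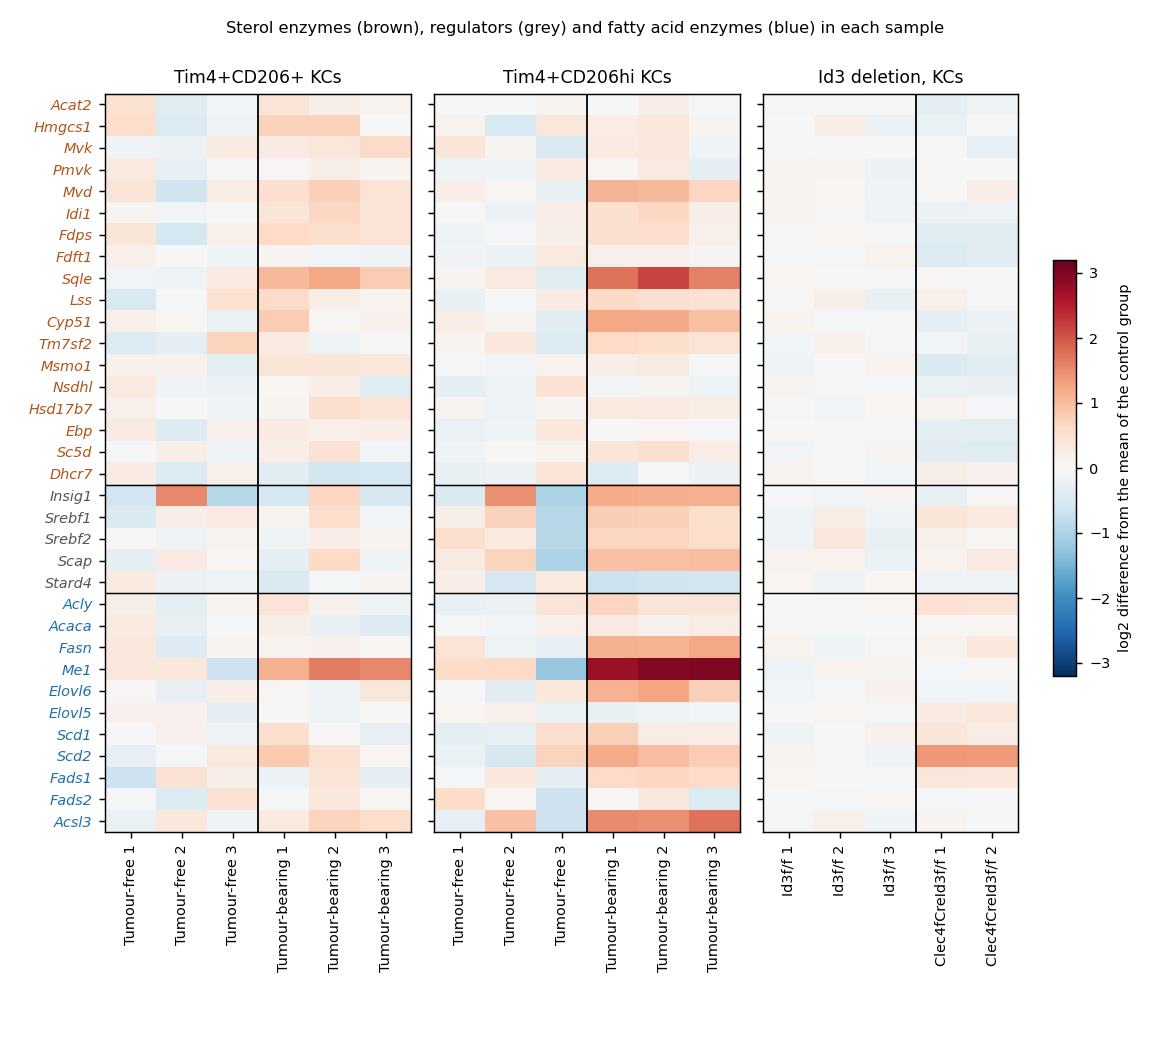
Difference of each sample from the mean of its control group (colour, log2 scale) for the 34 genes (rows) in the 3 tables (panels), with sterol enzymes on top, regulators in the middle and fatty acid enzymes below. The tumour-bearing Tim4+CD206hi samples are darkest at Me1 and Sqle, and the Clec4fCreId3f/f samples at Scd2.

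The first comparison asked how the genes of Tim4+CD206hi KCs differed with tumour. Here 5 of the 34 genes rose and none fell: Sqle, Cyp51 and Mvd of the sterol branch and Me1 and Fasn of the fatty acid branch (limma, Benjamini-Hochberg adjusted p under 0.05). Of all 14561 genes tested, 7.23% were called, 5.21% as higher and 2.03% as lower. Fatty acid enzymes moved by a median of 0.63 with 9 of 11 above 0, and sterol enzymes by a median of 0.25 with 15 of 18 above 0, against a median of 0.03 and 52.3% above 0 (47.7% below) over all genes tested.

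Sqle stood at 8.33, 8.54 and 7.86 in tumour-free and at 9.97, 10.40 and 9.86 in tumour-bearing samples. The groups were well apart, with every tumour-bearing sample more than 1 unit above every tumour-free one. It rose by 1.83 (SE 0.25, 3.57-fold; limma, adjusted p = 0.00518), and it stayed past the threshold in all 15 alternatives, with adjusted p from 0.00288 to 0.0391. Cyp51, the lanosterol demethylase that acts after squalene has been closed into a ring, stood at 9.46, 9.29 and 8.88 without and 10.46, 10.44 and 10.17 with tumour. These groups did not overlap either, and the rise was 1.14 (SE 0.21, 2.21-fold; limma, adjusted p = 0.0193). Mvd, the decarboxylase that ends the mevalonate steps, stood at 9.23, 9.04 and 8.76 without and 10.10, 10.05 and 9.71 with tumour. Its groups lay apart by less, and it rose by 0.94 (SE 0.21, 1.92-fold; limma, adjusted p = 0.0401).

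Me1, the malic enzyme that supplies NADPH for fatty acid synthesis, had the widest difference of the 34 genes. It stood at 7.65, 7.70 and 5.85 in tumour-free and at 9.84, 10.01 and 10.07 in tumour-bearing samples. Tumour-free replicate 3 lay well under the other controls, and all controls lay under all tumour-bearing samples. The rise was 2.91 (SE 0.49, 7.49-fold; limma, adjusted p = 0.0129), and 2.30 (adjusted p = 0.000798) without tumour-free replicate 3. Its level per kilobase went from percentile 25.4 to percentile 63.9. Fasn, the synthase that builds palmitate, stood at 9.68, 9.10 and 8.99 without and 10.41, 10.37 and 10.50 with tumour. The tumour-bearing samples were close together and above all controls, and the rise was 1.17 (SE 0.22, 2.25-fold; limma, adjusted p = 0.0222).

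The calls other than Sqle rested on having 3 tumour-bearing samples. Without tumour-bearing replicate 1, 2 or 3 only Sqle was called in each case, and the adjusted p of the other genes (limma, over all samples left out in turn) reached 0.136 for Cyp51, 0.238 for Mvd, 0.0712 for Me1 and 0.128 for Fasn. Without tumour-free replicate 1, 4 of the 5 were called, all but Mvd (adjusted p = 0.0684). With the trends of change with GC content and length removed, Sqle, Cyp51 and Me1 were called, while Fasn (0.74, adjusted p = 0.0718) and Mvd (0.52, adjusted p = 0.204) were not. Centring each sample on its median gene moved the median change of all genes by -0.16, to -0.13. On that centred scale, Sqle was higher by 1.67, Cyp51 by 0.98, Mvd by 0.78 (not called, limma adjusted p = 0.0877), Fasn by 1.01 and Me1 by 2.75.

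Further members of the fatty acid branch differed with the groups apart but did not pass the threshold. Over all genes tested, 30.7% had groups that did not overlap (15.6% higher, 15.2% lower), against 8 of 18 sterol enzymes and 6 of 11 fatty acid enzymes, all higher. Acsl3, which couples long-chain fatty acids to CoA, stood at 7.35, 8.56 and 6.95 without and 9.13, 9.08 and 9.37 with tumour (1.57, SE 0.41, limma adjusted p = 0.0678). Tumour-free replicate 2 lay closest to the tumour-bearing samples. Elovl6, which lengthens palmitate, stood at 7.32, 6.96 and 7.63 without and 8.41, 8.57 and 8.06 with tumour (1.04, SE 0.26, limma adjusted p = 0.0568). Scd2, a stearoyl-CoA desaturase that makes monounsaturated fatty acids, stood at 11.44, 11.14 and 12.35 without and 12.83, 12.64 and 12.47 with tumour (1.00, SE 0.31, limma adjusted p = 0.122). Tumour-free replicate 3 came close to the lowest tumour-bearing sample. Fads1, a desaturase of polyunsaturated fatty acids, stood at 11.32, 11.71 and 11.06 without and 11.98, 12.03 and 11.97 with tumour (0.63, SE 0.20, limma adjusted p = 0.12).

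The remaining fatty acid enzymes gave -0.17 to 0.50. Acly, the most abundant, differed by 0.50 (95% confidence interval -0.02 to 1.01), Scd1 by 0.41 and Acaca by 0.21, while Fads2 (-0.04) and Elovl5 (-0.17) were the 2 below 0.

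In the sterol branch, Lss, which closes the ring to lanosterol, stood at 8.39, 8.60 and 8.88 without and 9.26, 9.15 and 9.09 with tumour (0.54, SE 0.20, limma adjusted p = 0.181). Tm7sf2, a sterol reductase, stood at 7.76, 8.01 and 7.21 without and 8.29, 8.23 and 8.11 with tumour (0.55, SE 0.25, limma adjusted p = 0.271). Both had groups apart without passing the test. Hmgcs1, the HMG-CoA synthase at the head of the mevalonate steps, overlapped, at 11.20, 10.60 and 11.46 against 11.32, 11.42 and 11.18 (0.22, limma adjusted p = 0.616). The other 12 sterol enzymes gave -0.23 (Dhcr7, the last step) to 0.46 (Idi1, the isopentenyl diphosphate isomerase), and 3 of them lay below 0. Under median centring 7 of the 18 sterol enzymes lay below 0. The branch median was then 0.09, against 0.47 for the fatty acid enzymes and -0.13 for all genes tested.

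**Figure D3:**
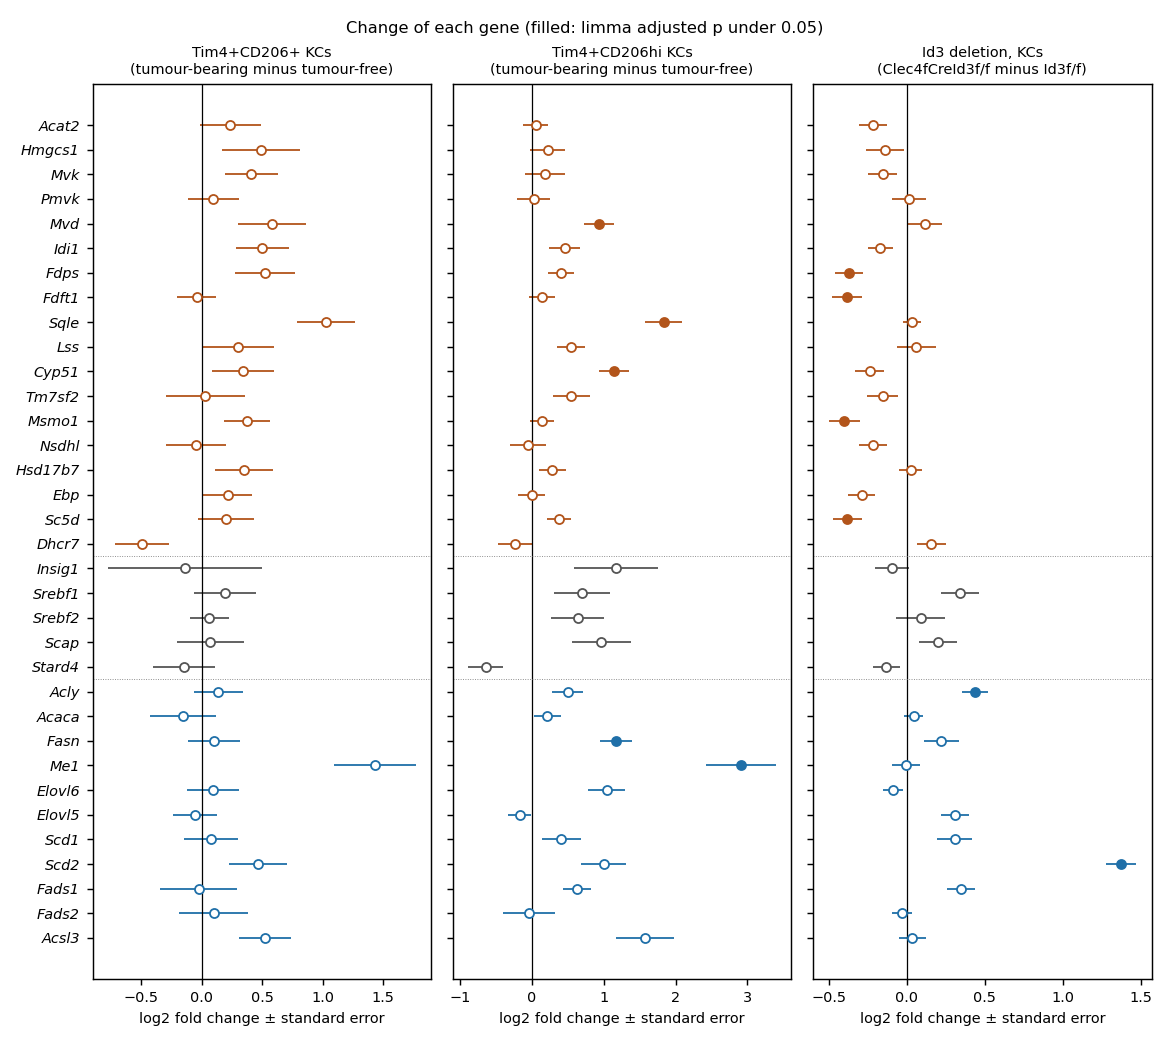
Log2 fold change of each gene with its standard error (x axis) in Tim4+CD206+ KCs with tumour, Tim4+CD206hi KCs with tumour and KCs with Id3 deletion; filled points have a limma adjusted p under 0.05. Filled points are 0, 5 and 6 in the 3 panels, and in the Id3 panel 4 sterol enzymes lie left of 0 and Acly and Scd2 lie right of it.

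The regulators of Tim4+CD206hi KCs varied widely between tumour-free samples. Srebf1 stood at 10.81, 11.36 and 9.72 without and 11.41, 11.40 and 11.20 with tumour (0.70, SE 0.39, limma adjusted p = 0.345). Srebf2 stood at 11.46, 11.19 and 10.00 without and 11.55, 11.56 and 11.44 with tumour (0.64, SE 0.36, limma adjusted p = 0.358). Scap, the carrier of both factors, stood at 9.77, 10.18 and 8.47 without and 10.42, 10.43 and 10.47 with tumour (0.97, SE 0.41, limma adjusted p = 0.238). In all 3 genes tumour-free replicate 3 was lowest by about 1 unit or more, while the tumour-bearing samples were tight. Insig1 was uneven within the controls, at 8.65, 10.57 and 8.09, where replicate 3 was again lowest. Its tumour-free replicate 2 lay above all 3 tumour-bearing samples (10.30, 10.27 and 10.24). Over all samples Insig1 differed by 1.17 (SE 0.58, limma adjusted p = 0.299) and was not called. Without tumour-free replicate 2 the difference was 1.90 (limma, adjusted p = 0.002, range over its 15 alternatives 0.002 to 0.584). In that fit 12 of the 34 genes were called, 11 of them higher, against 25% of all genes tested. Without tumour-free replicate 3, 9 were called, against 8.74% of all genes tested. Stard4, a sterol carrier protein, stood at 11.17, 10.44 and 11.29 without and 10.29, 10.33 and 10.36 with tumour (-0.64, SE 0.24, limma adjusted p = 0.196), the sole member with groups apart in the lower direction.

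The second comparison set tumour-bearing against tumour-free Tim4+CD206+ KCs. None of the 34 genes passed the threshold in limma, against 3.54% of the 13233 genes tested (2.55% higher, 0.998% lower), and 3 of the 34 had an unadjusted p under 0.05 (Sqle, Me1 and Acsl3), against 17.2% of all genes tested. Sterol enzymes moved by a median of 0.32 with 15 of 18 above 0, and fatty acid enzymes by 0.10 with 8 of 11 above 0, against 0.02 and 52.1% (47.9% below) over all genes tested. The groups did not overlap for 5 sterol enzymes and for 1 fatty acid enzyme, all higher, against 23.4% of all genes, 12.9% higher and 10.5% lower.

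Sqle and Me1 again showed the widest differences. Sqle stood at 7.64, 7.58 and 7.99 without and 8.78, 8.96 and 8.54 with tumour (1.03, SE 0.24, 2.04-fold; limma, adjusted p = 0.0575). Me1 stood at 6.26, 6.24 and 5.21 without and 7.03, 7.53 and 7.43 with tumour (1.43, SE 0.34, 2.69-fold; limma, adjusted p = 0.0623). In both, all tumour-bearing samples lay above all controls. Samples with the same replicate number deviated together in this table, and with the number as a block both genes passed, at an adjusted p of 0.0306 for Sqle and 0.0165 for Me1 (limma, ranges over 15 alternatives 0.0274 to 0.199 and 0.0165 to 0.195). Without tumour-free replicate 2, Me1 was higher (1.60, limma adjusted p = 0.0399) and Dhcr7 lower (-0.71, limma adjusted p = 0.0353, against -0.49 and 0.311 with it, and a range over 15 alternatives of 0.0353 to 0.593).

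Mvd stood at 10.62, 9.57 and 10.47 without and 10.76, 10.99 and 10.65 with tumour (0.58, SE 0.28, limma adjusted p = 0.345). Idi1 stood at 6.27, 6.08 and 6.20 without and 6.58, 6.84 and 6.63 with tumour (0.50, SE 0.22, limma adjusted p = 0.291). Fdps, the farnesyl diphosphate synthase, stood at 11.89, 10.94 and 11.67 without and 12.14, 12.01 and 11.93 with tumour (0.53, SE 0.25, limma adjusted p = 0.33). All 3 had groups apart, and tumour-free replicate 2 was the lowest control in each, by about 1 unit or less. Msmo1, the methylsterol oxidase, was the fifth sterol enzyme with groups apart (0.38).

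Hmgcs1, the synthase Fasn and the SREBP genes overlapped between the groups. Hmgcs1 stood at 9.45, 8.46 and 8.77 without and 9.63, 9.64 and 8.89 with tumour (0.49, limma adjusted p = 0.508). Fasn stood at 11.06, 10.31 and 10.82 without and 10.85, 10.87 and 10.78 with tumour (0.11, 95% confidence interval -0.39 to 0.60), where the interval of Tim4+CD206hi KCs was 0.64 to 1.69. Srebf1 (10.53, 11.21 and 11.27 against 11.10, 11.55 and 10.92) and Srebf2 (11.82, 11.63 and 11.89 against 11.67, 11.98 and 11.88) differed by 0.19 and 0.06. Insig1 was again uneven, at 7.50, 9.65 and 7.20 without and 7.56, 8.78 and 7.61 with tumour, with replicate 2 highest in both groups. The other 22 genes had changes from -0.15 to 0.53.

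**Figure D4:**
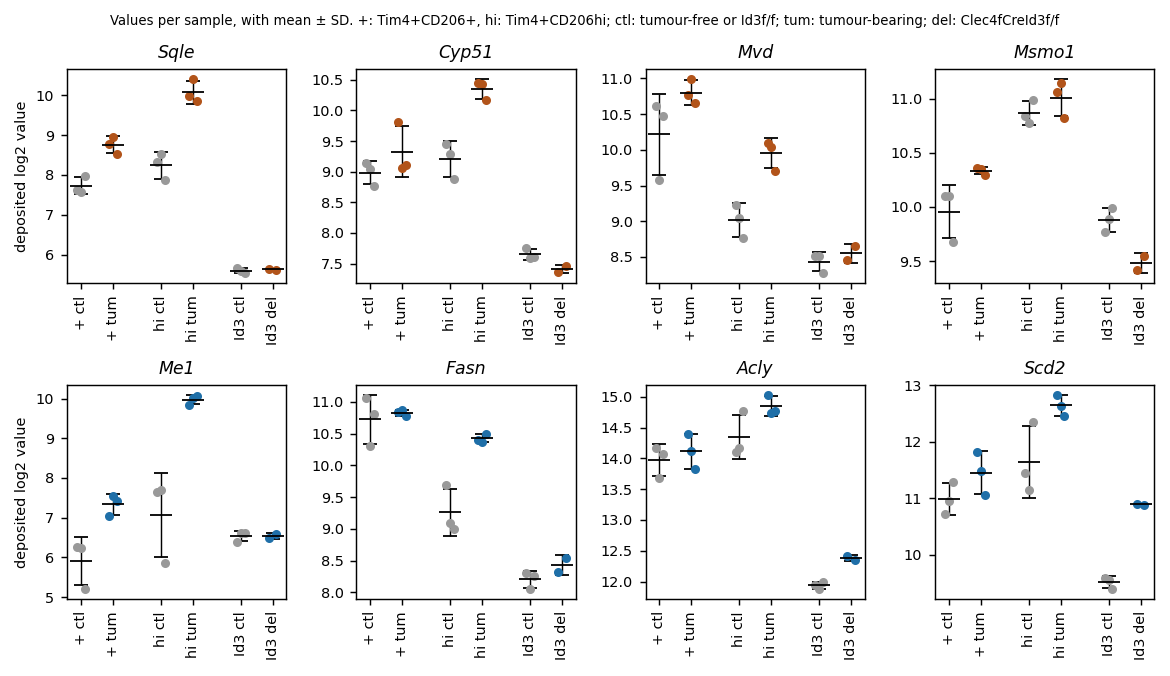
Deposited log2 value of 8 genes in each sample (points, y axis) with the mean and SD of each group (bars), for Tim4+CD206+ KCs, Tim4+CD206hi KCs and the Id3 table. Sqle and Me1 are higher with tumour in both populations without overlap, Fasn in Tim4+CD206hi KCs alone has groups apart with tumour, and Scd2 is the widest apart in the Id3 table.

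Set side by side, 28 of the 34 genes had the same sign with tumour in both populations (16 of 18 sterol and 8 of 11 fatty acid enzymes), against 61.6% of 13110 genes tested in both. The absolute difference was the larger in Tim4+CD206hi KCs for 23 of the 34 (67.6%), against 58.5% of those 13110 genes. The fatty acid median was 0.63 there and 0.10 in Tim4+CD206+ KCs, while the sterol medians were 0.25 and 0.32. Whether both populations came from the same mice is not stated. The difference between the populations was not tested, since their tables were normalized separately.

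The third comparison asked how KCs of Clec4fCreId3f/f mice, which had less Id3 RNA, differed from those of Id3f/f mice. Id3 itself stood at 12.59, 12.46 and 12.82 in Id3f/f and at 9.83 and 9.82 in Clec4fCreId3f/f samples (-2.80, limma adjusted p = 1.4e-06). Here the called genes of the branches went in opposite directions. In the sterol branch 4 enzymes fell (Fdps, Fdft1, Msmo1 and Sc5d). In the fatty acid branch 2 rose (Scd2 and Acly, which feeds both branches). Of 12833 genes tested, 6.44% were called (3.08% higher, 3.37% lower). The 9 fatty acid enzymes not called gave -0.09 (Elovl6) to 0.35 (Fads1), with Acaca at 0.04. Sterol enzymes had a median of -0.16 with 12 of 18 below 0, and fatty acid enzymes a median of 0.22 with 8 of 11 above 0, against 0.00 and 50.4% above 0 (49.6% below) over all genes. The groups did not overlap in 10 sterol enzymes as lower and 1 as higher, and in 6 fatty acid enzymes as higher and 0 as lower, against 41.9% over all genes, 21.7% lower and 20.2% higher.

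Scd2 stood at 9.59, 9.56 and 9.39 in Id3f/f and at 10.90 and 10.88 in Clec4fCreId3f/f samples. The samples of each genotype lay close together, and the genotypes were more than 1 unit apart. It rose by 1.38 (SE 0.10, 2.60-fold; limma, adjusted p = 0.00015) and was called in all 14 alternatives, of which 2 leave 1 Clec4fCreId3f/f sample. Its level per kilobase went from percentile 60.4 to 77.9. Scd1, its neighbour on chromosome 19 with 69.8% identity over the aligned transcript, had groups apart at 9.38, 9.53 and 9.67 against 9.90 and 9.76 (0.31, limma adjusted p = 0.127). The longest run the 2 transcripts share is 147 bases, longer than the 100-base reads, so a small part of their reads cannot be told apart. Acly stood at 11.94, 11.88 and 12.00 against 12.41 and 12.34, again without overlap, and rose by 0.44 (SE 0.08, 1.36-fold; limma, adjusted p = 0.0186).

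The 4 sterol enzymes that fell did so by similar, small amounts. Fdps, at the branch point of the isoprenoids, stood at 9.99, 10.09 and 9.97 against 9.63 and 9.66 (-0.37, SE 0.09, limma adjusted p = 0.0423). Fdft1, the squalene synthase that commits farnesyl units to sterols, stood at 9.92, 9.94 and 10.09 against 9.55 and 9.65 (-0.38, SE 0.10, limma adjusted p = 0.0475). Msmo1 stood at 9.77, 9.89 and 9.99 against 9.42 and 9.54 (-0.40, SE 0.10, limma adjusted p = 0.0474). Sc5d, the sterol desaturase near the end of the chain, stood at 8.77, 8.84 and 8.95 against 8.49 and 8.46 (-0.38, SE 0.10, limma adjusted p = 0.0459). In each, both Clec4fCreId3f/f samples lay under all Id3f/f samples, at 0.76 to 0.77 of their level on average. Sqle, which was called with tumour in Tim4+CD206hi KCs, stood at 5.67, 5.60 and 5.55 against 5.65 and 5.63 (0.03, 95% confidence interval -0.09 to 0.16). These values are low, and whether the transformation narrowed their difference was not tested. The 95% confidence interval of Me1 was -0.20 to 0.20.

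The 4 sterol calls were close to the threshold, with adjusted p from 0.0423 to 0.0475 (limma). Acly was further from it (limma, adjusted p = 0.0186) and was called in 10 of its 14 alternatives. Without Id3f/f replicate 1, Id3f/f replicate 2 or either Clec4fCreId3f/f sample, Scd2 was the one member called, and the adjusted p of the others reached 0.378 for Fdps, 0.417 for Fdft1, 0.422 for Msmo1, 0.348 for Sc5d and 0.295 for Acly (limma). Without either Clec4fCreId3f/f sample that arm holds 1 sample, which is assumed to vary like the Id3f/f samples, and 17 and 19 of all genes were called. The highest adjusted p of each gene came from those fits. Without Id3f/f replicate 3, 8 members were called, against 14.4% of all genes tested. All 5 kept their direction in each of their 14 alternatives.

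Hmgcs1 overlapped at 9.45, 9.67 and 9.29 against 9.26 and 9.40 (-0.14, limma adjusted p = 0.549). Fasn stood at 8.31, 8.05 and 8.25 against 8.31 and 8.54 (0.22, SE 0.11, limma adjusted p = 0.274), with the groups touching to 2 decimals. Srebf1 stood at 9.43, 9.80 and 9.46 against 9.94 and 9.88 (0.34, SE 0.12, limma adjusted p = 0.122), and its groups were apart. Srebf2 overlapped at 8.49, 8.98 and 8.38 against 8.74 and 8.67 (0.09, limma adjusted p = 0.794). Of the rest, Fads1 (0.35, limma adjusted p = 0.0506), Elovl5 (0.31, 0.0782) and, in the other direction, Ebp (-0.29, 0.0781) came nearest to the threshold, and the other 18 gave -0.24 to 0.20.

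**Figure D5:**
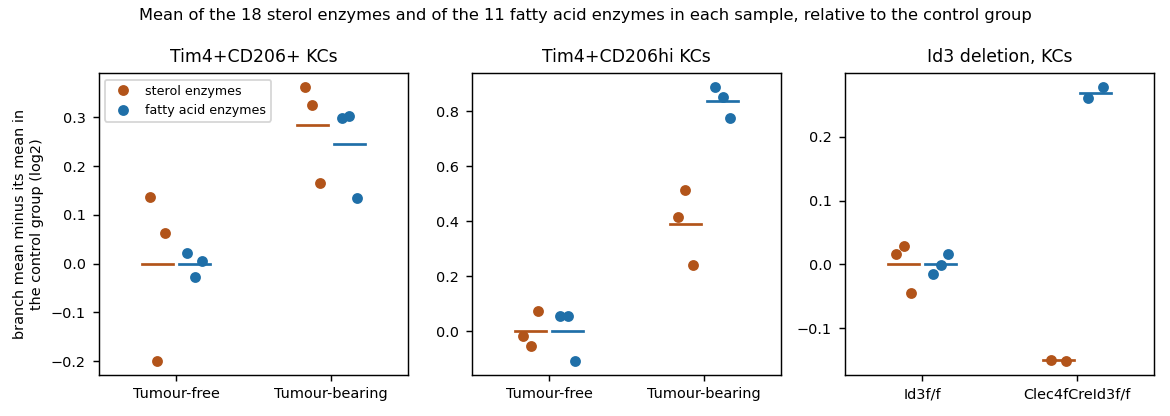
Mean of the 18 sterol enzymes (brown) and of the 11 fatty acid enzymes (blue) in each sample, minus the mean of that branch in the control group (y axis, log2); lines are group means. With tumour both branch means lie above the controls in both populations, and with Id3 deletion the sterol mean lies below and the fatty acid mean above the controls.

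The mean of the sterol enzymes minus that of the fatty acid enzymes was 0.18, 0.18 and 0.09 in Id3f/f and -0.26 and -0.28 in Clec4fCreId3f/f samples, without overlap. In Tim4+CD206hi KCs the difference was -0.57, -0.61 and -0.32 without and -0.97, -0.84 and -1.03 with tumour, also without overlap and in the same direction. The sterol mean itself rose there, from 9.43, 9.39 and 9.52 to 9.86, 9.96 and 9.68. With Id3 deletion it fell, from 8.22, 8.23 and 8.16 to 8.05 and 8.05. The fatty acid mean of Tim4+CD206hi KCs includes Me1, which rose by 2.91, and the part of this 1 gene was not tested. In Tim4+CD206+ KCs the difference between the means was 0.32, 0.03 and 0.26 without and 0.26, 0.22 and 0.23 with tumour, and overlapped. These are descriptions with no test, since the genes were chosen with earlier results known.

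Other measures differed between the genotypes. Xist stood at 6.33 to 6.38 in Id3f/f and 9.76 to 9.84 in Clec4fCreId3f/f samples and Ddx3y fell by 2.44 between them, so that sex and genotype cannot be told apart here. Clec4f was lower by 1.52, but of the 12 KC markers 3 were called higher and 4 lower. The KC marker sum went from 20.28 to 20.33 in Id3f/f down to 20.17 to 20.19 in Clec4fCreId3f/f samples. The change of all tested genes rose with exonic length in this table (Spearman's rho 0.317 across genes, which are not independent replicates, against -0.08 and 0.03 in the Tim4+CD206+ and Tim4+CD206hi tables), and the median exonic length was 4315 bases for sterol, 4892 for fatty acid and 4247 for all tested genes. With the trends of change with GC content and length removed the same 6 genes were called, the sterol median was -0.16 and the fatty acid median 0.08. Epithelial genes summed to 8.67 to 8.78 in Id3f/f and 8.65 to 8.79 in Clec4fCreId3f/f samples, with Cldn4, Gkn1, Krt20 and Elf3 at 0. Hepatocyte sums were 14.72 to 15.10 and 14.98 to 15.23 (2 of 14 higher, 1 lower), and monocyte sums 13.60 to 13.88 and 12.87 to 12.96 (1 of 7 tested lower). Neutrophil sums were 11.01 to 11.12 and 10.68 to 10.89 (1 of 6 tested lower), and stellate sums 12.47 to 12.51 and 12.13 to 12.26 (0 of 8 called). The part of length, sex and these lists in the result was not tested.

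Another 34 genes of sterol and fatty acid uptake, efflux, elongation and control were followed beside these. In Tim4+CD206+ KCs none of the 34 was called (median -0.07). In Tim4+CD206hi KCs Thrsp, a lipogenic gene of the liver, fell by 3.02 (SE 0.62, limma adjusted p = 0.029) from 8.20 to 10.93 to 6.38 to 6.71, beside the fall in hepatocyte genes. With Id3 deletion 32 of the 34 were tested, of which Abcg1, a cholesterol exporter, rose by 0.56 (SE 0.10, limma adjusted p = 0.0172) and Npc2, which carries cholesterol out of lysosomes, fell by 0.55 (SE 0.07, limma adjusted p = 0.00478). The medians were 0.13 and 0.02.

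In the annotation, 12 of the 34 genes overlap another gene, 9 on the other strand and 3 on the same strand. Among those called, Fdft1 meets Ctsb, an abundant lysosomal protease gene, on the other strand. Cyp51 (Akap9), Mvd (Gm20388) and Me1 (A330041J22Rik) also meet a gene on the other strand, and Fdps meets Gm43738 on the same strand. The libraries do not mark strand, so reads from such overlaps cannot be told apart by strand. In GRCm38 coordinates, Sqle lies at chr15:59315077-59331192, Me1 at chr9:86581371-86695953, Acly at chr11:100476353-100528000 and Scd2 at chr19:44293674-44306864.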

How the data were processed

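KCs were sorted into TRIzol, and libraries were made with SMART-Seq v4 amplification and sequenced as paired reads of 100 bases. The authors aligned reads with STAR 2.7.10a, counted them with HTSeq and used DESeq2, with mm10 in the submitters' notes and GRCm39 or mm10 in the methods, so the build is uncertain. The deposited values are on a log2 scale and behave like a regularized log, although headers name TPM and file titles name counts. Each of the 3 tables was normalized separately, so tests stay within a table, and a count test was not possible. Depth per sample is not given in the sources used here, so no counting interval is printed.

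Genes with a value of at least log2 of 10 in 3 samples (2 for Id3) were tested with limma 3.58.1 in R 4.3.3 (lmFit, eBayes with trend), two-sided, with Benjamini-Hochberg adjustment over all genes tested and a threshold of 0.05. Intervals are 95% intervals from limma. Exonic lengths came from the GENCODE M21 union of exons. All 34 members are accounted for. Values per sample are given for members past the threshold, for members whose groups did not overlap with a change of at least 0.5, and for Hmgcs1, Fasn, Srebf1 and Srebf2, and related genes are named where called, except 1 that is not reported here. The members and lists were chosen with earlier results of these data known. Samples with the same replicate number deviated together across genes in the Tim4+CD206+ table (r = 0.35, 0.564 and 0.149, where labels share the numbers), and not in the others. Alternatives were other filters, the replicate block, each sample left out, no trend, quantile normalization, median centring, 10 added on the linear scale and, chosen after seeing the data, removal of GC and length trends. The scripts were tested on simulated data. Promoter windows were from RefSeq (GRCm38.p6), and Python 3.11.15, pandas 2.3.3 and Biopython 1.88 were used.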

Additional observations from a re-analysis of the deposited data

How the results depend on the processing

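In Tim4+CD206+ KCs, the count of all genes called went from 469 to 1026 with the replicate block and 947 with the block and GC and length trends removed, and to 231 to 1032 with a sample left out. Members called went from 0 to 2 with the block, with or without removal of the trends, to 1 without the mean-variance trend and to 0 to 2 with a sample left out. The fatty acid median of 0.10 went to 0.0285 under median centring (all genes tested -0.0535) and 0.0141 to 0.19 with a sample left out. Changes near 0 turned sign: Srebf2 to -0.0075 under median centring and -0.0118 to 0.15 with a sample left out, Srebf1 to -0.046 to 0.33 and Fasn to -0.105 to 0.27.

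In Tim4+CD206hi KCs, genes called went from 1053 to 600 with the stricter filter and to between 444 and 3633 with a sample left out, the highest count arising when tumour-free replicate 2 was dropped. Members called went from 5 to 3 with trends removed and to 1 to 12 with a sample left out. The regulator median of 0.70 went to 0.25 with trends removed, with or without the replicate block, and 0.25 to 1.07 with a sample left out. The fatty acid median of 0.63 went to 0.47 under median centring, 0.45 with trends removed, with or without the block, and 0.61 to 0.75 with a sample left out. The sterol median of 0.25 went to 0.0903 under median centring, where the median of all genes tested was -0.132. Hmgcs1 gave -0.024 to 0.41 with a sample left out. Quantile normalization moved the share of calls that were higher from 72.0% to 56.2% and trend removal to 56.4%. Here and in the Id3 table the replicate numbers did not pair the samples (r = -0.0481, -0.132 and -0.0511, and -0.0733 and -0.0996), and the block left 909 genes and 4 members called here, and 8 members in the Id3 table.

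With Id3 deletion, genes called went from 827 to 477 without the filter, 2089 with the replicate block, 2125 with the block and trends removed, and 17 (without Clec4fCreId3f/f replicate 1) to 1850 (without Id3f/f replicate 3). Members called went from 6 to 2 without the filter and to 1 to 8 with a sample left out. The fatty acid median of 0.22 went to 0.26 with the stricter filter, 0.25 with the block, 0.19 under quantile normalization and under median centring, 0.0775 with trends removed, 0.10 with trends removed and the block, and 0.11 to 0.25 with a sample left out. The sterol median of -0.16 went to -0.22 with the block, -0.19 under median centring and with trends removed and the block, and -0.22 to -0.16 with a sample left out. The regulator median of 0.09 went to -0.029 with the block, -0.040 with trends removed, -0.043 with both, and -0.029 to 0.26 with a sample left out. Srebf2 turned sign, to -0.029 with the block, -0.040 with trends removed, -0.15 with both and -0.029 to 0.27 with a sample left out. Median centring moved the share of calls that were higher from 47.8% to 37.4%.

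The causes of these moves were not tested. With 2 or 3 samples a group, changes under about 0.5 were seldom called in the tumour tables, and genes with few reads have understated differences.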
